A study of Mus musculus with 48 samples.

Results

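The genes described here are 10 splicing factor genes of the mouse, of the kind known to carry detained introns. They are Snrnp70 and Luc7l2 (U1 snRNP proteins), Srsf2, Srsf3, Srsf5, Srsf6, Srsf7 and Srsf11 (SR proteins), and Clk1 and Clk4 (SR protein kinases). They were taken by symbol from a table of 48526 gene rows, and all 10 were found and passed the filter on low counts in every fit. How the genes were chosen is known only in part. They were taken here as chosen by their level in the ribosome pellet relative to the starting lysate and by its change in old homogenate, and their levels in the 4 fractions may also have been seen. Values of those comparisons are given as a description, with counts past a threshold set beside the share of all genes and nothing read from them. This bears on all p-values given below, both for synaptosomes against homogenate and between ages. They describe these genes and are not independent tests of them.

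The data are RNA-seq read counts from the cortex of 12 male C57BL/6JRj mice, 4 at each of 3 ages: 3 weeks (3w), 5 months (5m in the study's protocol, written as 6 months in the sample characteristics) and 18 months (18m). From each mouse, total homogenate (TH) and synaptosomes (SYN, a preparation of pinched-off synaptic terminals) were made. Each was sampled before (input) and after pelleting through a sucrose cushion (SC, the ribosome-associated RNA), which gave 48 libraries. The labels name no genotype change or treatment for any group. Synaptosome preparations can hold fragments of other cells.

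An SR protein binds exonic enhancers through its RNA recognition motif and recruits the splicing machinery through a domain rich in arginine and serine. The CLK kinases phosphorylate that domain and so release SR proteins from nuclear speckles. U1 snRNP, which holds the SNRNP70 protein and to which LUC7-like proteins attach, pairs with the 5' splice site. A detained intron is one left in an otherwise processed, polyadenylated transcript. Such a transcript stays in the nucleus until the intron is removed or the RNA is degraded, and genes of splicing regulators are known for them. Several of these genes also control their own mRNA level through exons with premature stop codons.

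All 10 genes have at least 1 transcript annotated as intron-retaining in GENCODE M21 (GRCm38), as did 56.8% of the 13987 protein-coding genes tested. Reads had been counted over the exons of all annotated transcripts of a gene. A read in an annotated retained intron therefore counts for the gene, and exon and intron reads cannot be told apart in these files. The share of a gene's exonic length that lies only in intron-retaining transcripts was 73.5% for Snrnp70, 63.8% for Clk1, 59.8% for Clk4, 59.2% for Srsf3 and 58.0% for Srsf11. It was 37.9% for Srsf5, 29.5% for Srsf2, 21.1% for Srsf6, 14.3% for Srsf7 and 8.7% for Luc7l2. Over all protein-coding genes tested the median was 4.82%, and 7.31% of genes exceeded 50%, as 5 of the 10 did.

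In 7 of the genes, 16 introns are spanned whole by an exon of an intron-retaining transcript. Only introns between coding exons of a gene's principal transcript were taken, so they need not account for the shares above. Srsf2, Srsf11 and Luc7l2 have no such intron. The sequences at the 5' splice sites of the 16 introns are shown because they are the part of the transcript that U1 snRNP reads. Each holds 9 exonic and 12 intronic bases, 5' to 3' on the gene's strand, with the first 6 intronic bases in capitals. The longest such intron of each gene comes first. In Clk1 it is intron 3 (chr1:58420212-58421082, minus strand, 871 bases) and in Clk4 intron 3 (chr11:51272023-51273077, plus strand, 1055 bases). Introns 3 and 4 of Clk1 flank its exon 4, whose skipping and whose flanking introns' retention are known.
Clk1 intron 3: tcacacgggGTATGAgtgcct
Clk4 intron 3: tcgcattcgGTATGAgtggtt
Snrnp70 intron 3: gagagaaagGTATGCtgtttt
Srsf3 intron 3: tcggcgcagGTACTTgagaga
Srsf5 intron 5: agctggcagGTTTGTtgaaat
Srsf6 intron 2: gaagccgcaGTGAGTccttac
Srsf7 intron 3: aagaagcagGTATTTaattaa
Clk1 intron 4: gtgcaagatGTATAGaatatt
Clk4 intron 4: gagcaagatGTATAGaatatt
Clk1 intron 6: tagtactttGTAAGTatcaca
Clk4 intron 7: ctataaattGTAAGTattcat
Clk4 intron 8: tctaaaatgGTAAGTtaaaga
Srsf5 intron 2: ggttttgtgGTAAGTacttga
Srsf5 intron 4: tgatagacgGTATGTggtttg
Srsf5 intron 7: aaggcacagGTACTCtttcgt
Srsf3 intron 4: ccggagcagGTAAATgttttg

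The paralogs Clk1 and Clk4 share the 6 capital letters at both intron 3 and intron 4. Over the whole 21 bases, 15 are identical at intron 3 and 20 at intron 4. The letters GTATGA stand at 66 (0.95%) and GTATAG at 12 (0.17%) of the 6924 introns spanned in this way over all protein-coding genes. The consensus letters GTAAGT were found at 4 of the 16 introns (25.0%), against 667 of 6924 (9.6%), read on the sense strand. The 16 introns had a median length of 392 bases, against 252 bases over all. The Snrnp70 intron lies at chr7:45392134-45392262 (minus strand, 129 bases), the Srsf3 intron 3 at chr17:29038625-29040774 (plus strand, 2150 bases) and the Srsf7 intron at chr17:80204388-80205261 (minus strand, 874 bases). Counting did not use strand, so reads of Srsf2 cannot be parted from Mettl23 and Mfsd11 over 748 bases of overlap on the opposite strand, nor those of Luc7l2 from Gm26699 over 2284 bases.

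Library totals were 9699909 to 13225435 reads in input_TH, 3058278 to 15423546 in SC_TH, 1780267 to 7879536 in input_SYN and 5341263 to 18590040 in SC_SYN. Libraries of the same group differed more than counting error alone would give (chi-square per degree of freedom 1.98 to 32.2 over 72 pairs). Nuclear noncoding RNAs (9 genes, Malat1 and Neat1 among them) summed to 20500 to 24400 CPM (read counts scaled to library size) in input_TH, 6430 to 15100 in SC_TH, 2290 to 4850 in input_SYN and 1170 to 3830 in SC_SYN. Neuronal markers summed to 5780 to 7140 CPM in input_TH and 15800 to 17700 in input_SYN. No marker was at 0 in every library of a group. All values are scaled by TMM, which takes most genes as equal between libraries. In SC_TH the 3-week libraries were shallower than the 18-month ones. For example, Snrnp70 had 512 to 1248 reads at 3w (136 to 160 CPM) and 1447 to 2136 at 18m (114 to 128 CPM). The part of this depth difference in the age comparisons of SC_TH was not tested.

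Together the 10 genes took 981 to 1120 CPM in input_TH, 660 to 952 in SC_TH, 290 to 435 in input_SYN and 337 to 513 in SC_SYN. Per kilobase of annotated exon, Srsf5 had the highest level in input_TH with 41.7 ± 1.74 RPKM (SD, n = 12 libraries over 3 ages), followed by Snrnp70 with 34.0 ± 2.78 and Srsf2 with 25.9 ± 1.31. Clk1 was lowest with 6.46 ± 1.26 RPKM. Neighbours such as Srsf6 (15.6 ± 1.49) and Luc7l2 (14.8 ± 1.34), or Srsf3 (7.66 ± 0.926) and Clk4 (7.36 ± 1.05), differed by less than their SD. Snrnp70 lost its place outside input_TH: it ranked 3rd in SC_TH (18.4 ± 2.35 RPKM), 4th in input_SYN (5.94 ± 0.947) and 6th in SC_SYN (5.68 ± 1.08). Some of these ranks rest on near ties, with Srsf2 in SC_TH (21.4 ± 3.42) and with Srsf6 (5.9 ± 1.05) and Srsf7 (5.75 ± 1.04) in input_SYN. Srsf5 stayed first and Clk1 last in all 4 fractions. The annotated length includes retained introns, so genes with a large intron share have low RPKM where those introns hold few reads.

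**Figure D1:**
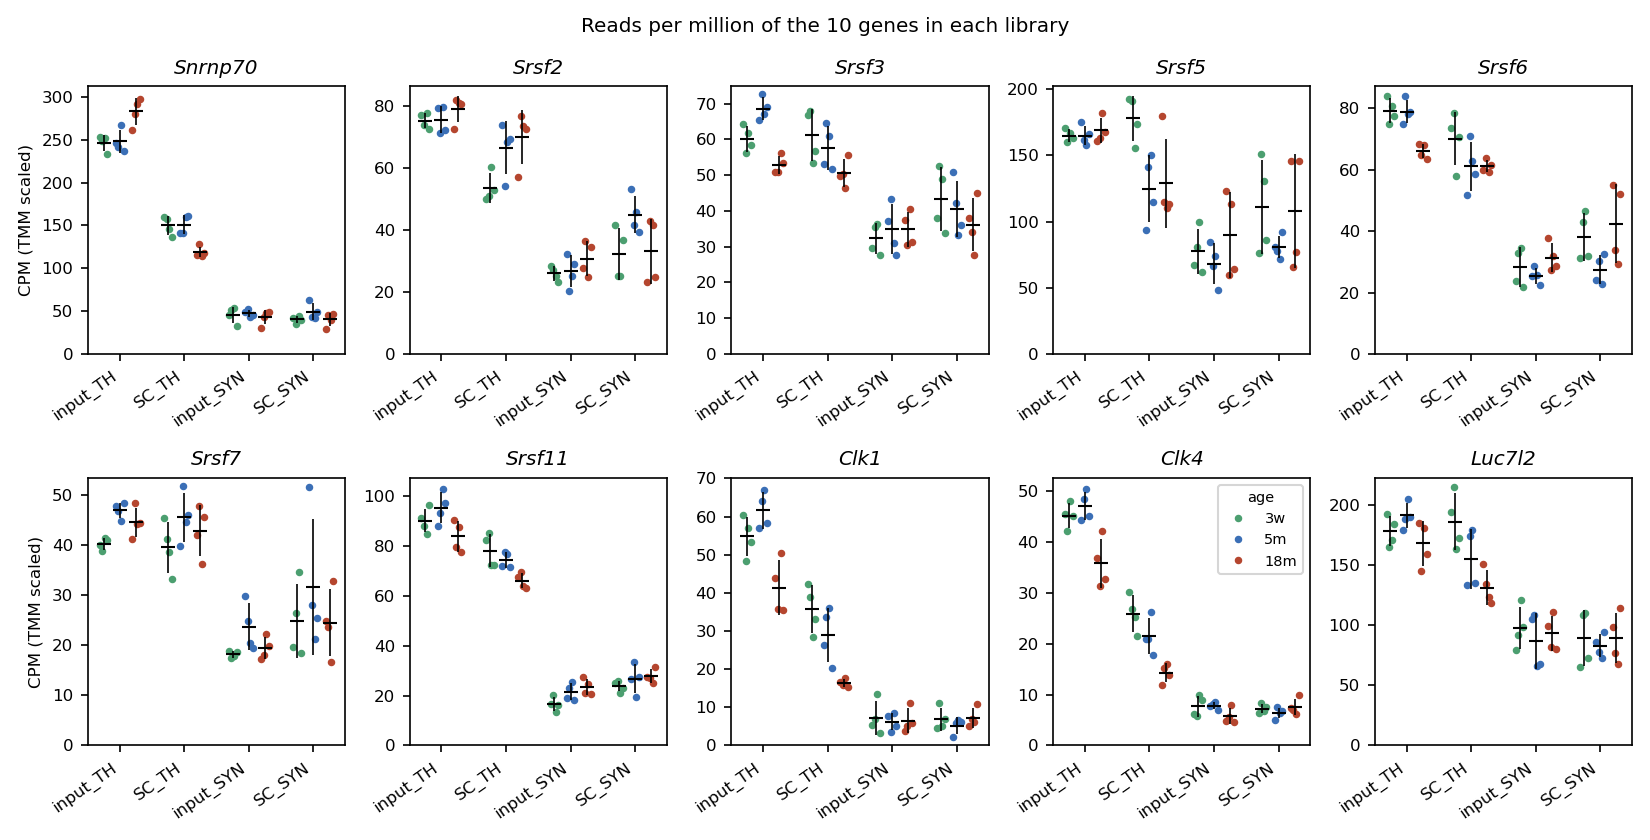
CPM (TMM scaled, linear axis from 0) of each of the 10 genes, 1 dot per library, in 4 fractions and at 3 ages (colour), with the mean as a bar and the SD as a line over 4 mice. Clk1, Clk4, Snrnp70 and Srsf11 lie far lower in both SYN fractions than in input_TH, and Clk1, Clk4 and Snrnp70 also step down from input_TH to SC_TH.

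The first comparison asks which transcripts of the homogenate also reach the synaptosome preparation. Every one of the 10 genes was lower in input_SYN than in input_TH at each age, where 39.3% (3w), 40.1% (5m) and 39.4% (18m) of the 17860 genes tested were called lower. The median log2 fold change of the 10 was -1.36, -1.40 and -1.17 at the 3 ages, against -0.18, -0.18 and -0.12 over all genes. The groups did not overlap in any of the 10 genes at any age, and were apart in the same way in 41.4%, 42.9% and 39.2% of all genes. In bulk RNA, fewer contributing cells or nuclei and less RNA per cell cannot be told apart.

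The kinases stood lowest. Clk1 had 57.1, 64, 67 and 58.2 CPM in the 4 input_TH libraries of 5-month mice. In input_SYN of the same mice it had 7.71, 3.61, 8.53 and 5.03 CPM. All 4 synaptosome values are thus below the lowest homogenate value. The log2 fold change was -3.14 ± 0.23 (SE), an 8.8-fold lower level, with an adjusted p of 9.99e-13 in edgeR's quasi-likelihood test. Such p-values describe levels that may have been seen when the genes were chosen. Clk4, its paralog, fell from 44.3, 48.5, 50.4 and 45.2 CPM to 7.71, 8.13, 8.53 and 6.91 CPM, which is 5.44-fold lower (log2 -2.44 ± 0.14, edgeR adjusted p = 1.09e-14). Again no mouse overlaps. Both genes rest on few reads there: 5 to 39 reads per input_SYN library for Clk1 and 14 to 31 for Clk4.

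Snrnp70, the U1-specific 70K protein, was the third of this kind. Its 5-month input_TH libraries had 246, 241, 267 and 237 CPM and its input_SYN libraries 48.8, 52.4, 43.5 and 45.3 CPM. That is 4.69-fold lower (log2 -2.23 ± 0.12, edgeR adjusted p = 1.37e-15). Srsf11, an SR-like protein, went from 88.2, 93.1, 103 and 97.2 CPM to 18.9, 23, 25.6 and 18.2 CPM, 4.04-fold lower (log2 -2.02 ± 0.11, edgeR adjusted p = 1.75e-15). Neither gene's groups came near each other. The same 4 genes had the 4 lowest fold changes at 3w (-2.86 to -2.25) and at 18m (-2.68 to -1.76).

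The other 6 genes were lower by smaller amounts. At 5m their log2 fold changes were -1.49 ± 0.11 for Srsf6, -1.32 ± 0.12 for Srsf2, -1.12 ± 0.17 for Srsf5, -0.99 ± 0.13 for Luc7l2, -0.83 ± 0.11 for Srsf3 and -0.83 ± 0.10 for Srsf7. Srsf3, a small SR protein, had the mildest difference of all at 18m (log2 -0.52 ± 0.10, 1.43-fold lower, edgeR adjusted p = 4.34e-05), with 51, 50.8, 56.1 and 53.3 CPM in input_TH and 37.4, 30.5, 40.6 and 31.2 CPM in input_SYN. Luc7l2, the other U1-associated gene, was 1.98-fold lower at 5m, so the 2 U1 genes did not fall alike: the interval of Snrnp70 (log2 -2.47 to -2.00) lies outside that of Luc7l2 (-1.24 to -0.73).

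**Figure D2:**
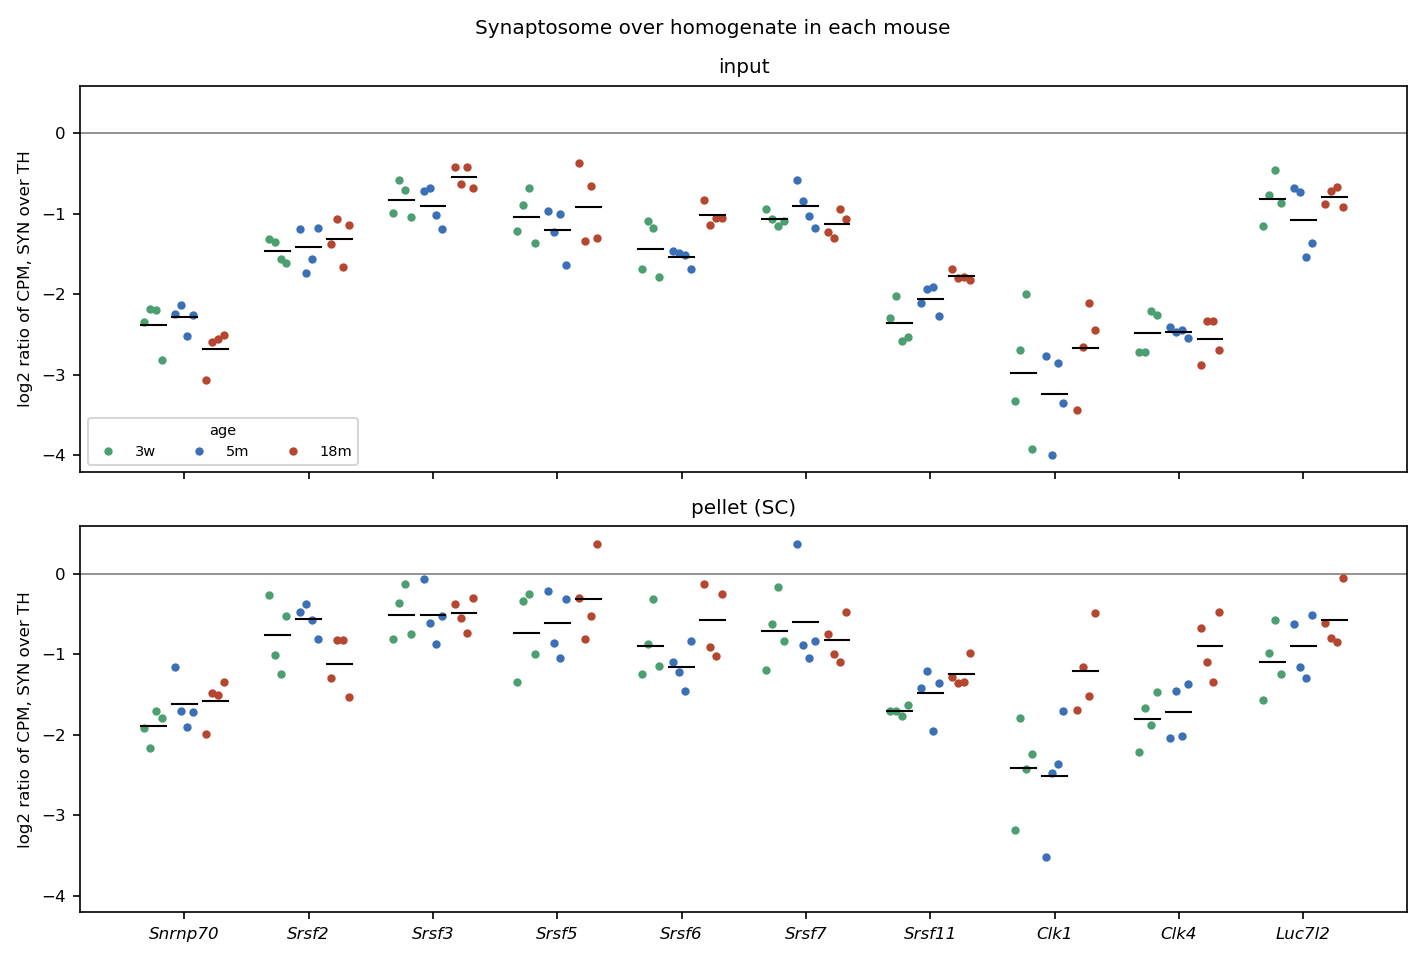
Log2 ratio of CPM in synaptosomes over homogenate for each mouse (dots, 4 per age) and gene, in the input (top) and the pellet (bottom), with the mean of 4 mice as a bar. In the input all 12 mice lie below 0 for every gene, and Clk1, Clk4, Snrnp70 and Srsf11 lie lowest.

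Ribosome-associated RNA gave smaller median differences. By mean ratio per mouse, Clk1, Clk4, Snrnp70 and Srsf11 were again lowest at 3w and 5m. At 18m Srsf2 (-1.12) lay below Clk4 (-0.9). Between SC_SYN and SC_TH, 10 of 10 genes were lower at 3w, 9 at 5m and 9 at 18m, where 32.4%, 35.8% and 32.2% of the 16630 genes tested were called lower. The medians of the 10 genes were -0.92, -0.97 and -0.83, against -0.04, -0.09 and -0.07 over all genes. The exceptions were Srsf7 at 5m (log2 -0.48 ± 0.22, edgeR adjusted p = 0.0566) and Srsf5 at 18m (-0.20 ± 0.24, adjusted p = 0.465, interval -0.67 to 0.26). DESeq2 called 10 at 5m and 9 at 18m, with its share over all genes not given here. Clk1 was again lowest at 5m with 26.3, 33.7, 35.9 and 20.2 CPM in SC_TH and 2.1, 5.85, 6.79 and 6.09 CPM in SC_SYN (log2 -2.38 ± 0.26, 5.2-fold lower, edgeR adjusted p = 1.73e-08). Those groups are far apart. At 18m the lowest was Snrnp70 instead (log2 -1.50 ± 0.13), with 115, 128, 114 and 118 CPM in SC_TH and 28.9, 45.8, 40 and 46 CPM in SC_SYN. Calls of Srsf2, Srsf3, Srsf5, Srsf6, Srsf7 or Luc7l2 in this comparison were lost in some fits without 1 mouse. Without mouse 187, Srsf3, Srsf5 and Srsf7 lost theirs at 3w, and Srsf5 also without mouse 190. At 5m Srsf2 lost it without mouse 194, and Srsf3 and Srsf5 without mouse 192 or 193. At 18m Srsf3, Srsf6 and Luc7l2 lost it without mouse 196 or 197.

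The size of these differences depends on scaling. Scaled by library size alone, the median over all genes moved from -0.18 to -0.83 (input, 5m) and from -0.09 to -0.68 (pellet, 5m), and the medians of the 10 genes became -2.06 and -1.56. Relative to all genes, the 10 lay lower under both. With a trend on GC content and exonic length removed, they were -0.88 and -0.53.

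Other splicing genes were lower in synaptosomes less evenly. Of 89 others, 53 were lower and 13 higher in input_SYN at 5m, with a median of -0.44. Over all genes tested, 40.1% were called lower and 32.6% higher. The lists nearest in function were 10 other SR proteins (9 lower, none higher, median -0.99), 5 other SR protein kinases, Clk2 and Clk3 among them (5 lower, median -1.04), and 9 other U1 proteins (7 lower, median -0.76). The Sm core proteins, which form the ring on most spliceosomal snRNAs but not on that of U6, had 3 of 8 higher and 1 lower (median 0.06). Of 12 U2 proteins 5 were lower and 1 higher, of 12 proteins of U5 and the tri-snRNP 7 and 1, of 18 hnRNP proteins 11 and 4, and of 15 neuronal splicing regulators 8 and 4.

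Markers of other material differed between input_SYN and input_TH in both directions. All 9 nuclear noncoding RNAs were lower in input_SYN at 5m (median log2 -2.94), and the 8 endothelial markers were lower in 8 of 8 (summed level 203 to 337 CPM in input_TH, 18.1 to 38.5 in input_SYN). Astrocyte markers were higher in 8 of 8 (3810 to 5470 CPM in input_TH, 13000 to 16700 in input_SYN), microglial markers in 8 of 8 (210 to 248 and 383 to 750) and oligodendrocyte markers in 5 of 8 (2240 to 7270 and 3120 to 11600). Of 8 neuronal markers 5 were higher and 2 lower, and of 10 synaptic mRNAs 8 were higher and 1 lower. None of the markers was at 0 in a whole group. Their part in the ratios of the 10 genes was not tested.

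**Figure D3:**
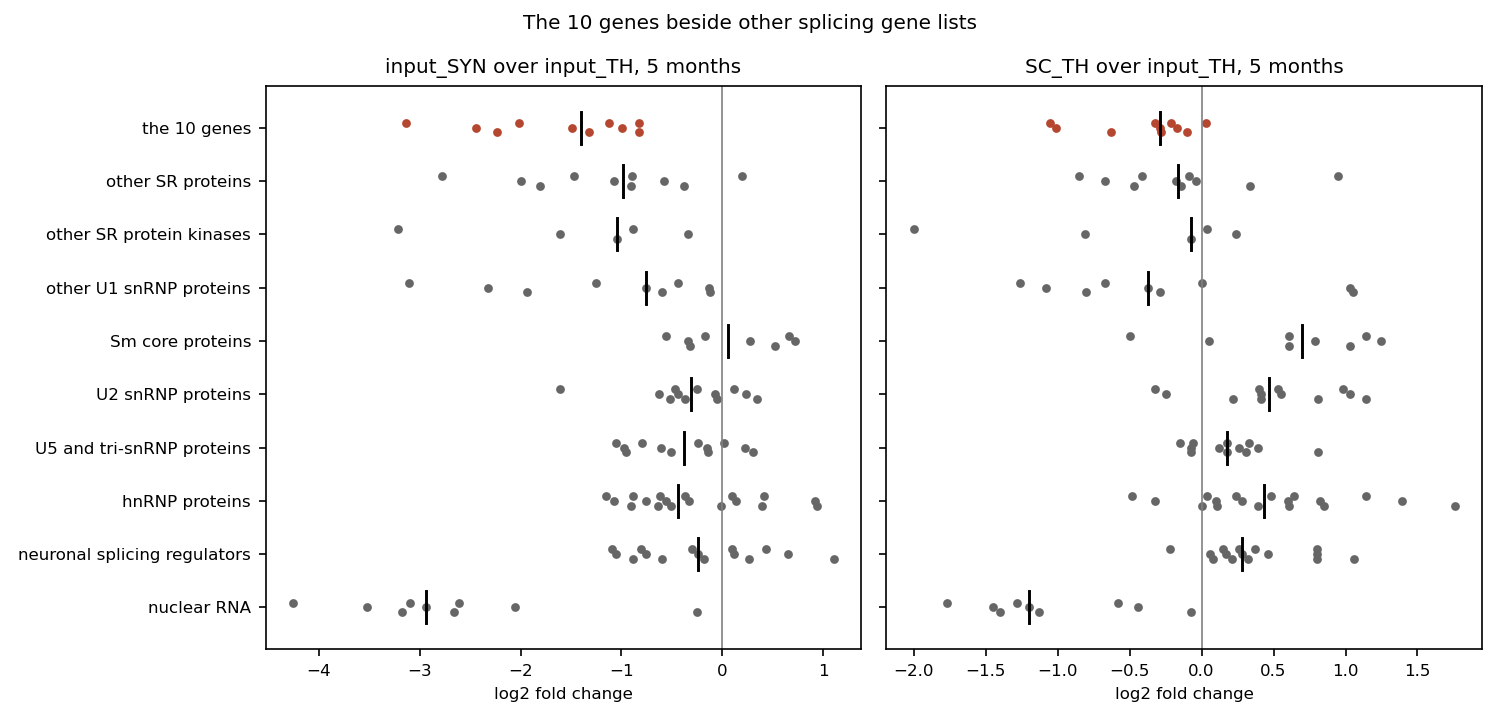
Log2 fold changes at 5 months of single genes (dots) in each list, with the list's median as a black line, for input_SYN over input_TH (left) and SC_TH over input_TH (right). The 10 genes (red) have medians of -1.40 and -0.28, between the nuclear RNAs (-2.94 and -1.20) and the Sm core proteins (0.06 and 0.70).

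Among the 10 genes, those with a larger annotated retained-intron share had lower synaptosome ratios. Pearson's r between that share and the log2 fold change of input_SYN over input_TH was -0.71 at 3w, -0.68 at 5m and -0.69 at 18m (Spearman -0.64, -0.71 and -0.64) across the 10 genes, which share the same libraries and are not independent. Srsf3 stood apart, with a share of 59.2% and a mild ratio. GC content gave Spearman values of 0.04, 0.09 and 0.01 and exonic length of -0.04, -0.25 and -0.02. As given above, the medians of the 10 genes became smaller in size once the trend on GC content and length was removed. The correlations, and the class medians below, are not given with that trend removed. Over all protein-coding genes the same order was seen in a weaker form. At 5m the median log2 fold change was 0.13 for 6078 genes with no such length, -0.03 for shares up to 10%, -0.17 up to 30%, -0.30 up to 50% and -0.43 for 1022 genes over 50%. The share called lower rose from 27.4% to 51.7% over these classes. Snrnp70, Clk1, Clk4 and Srsf11 (-3.14 to -2.02) lay far below the median of their class.

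**Figure D4:**
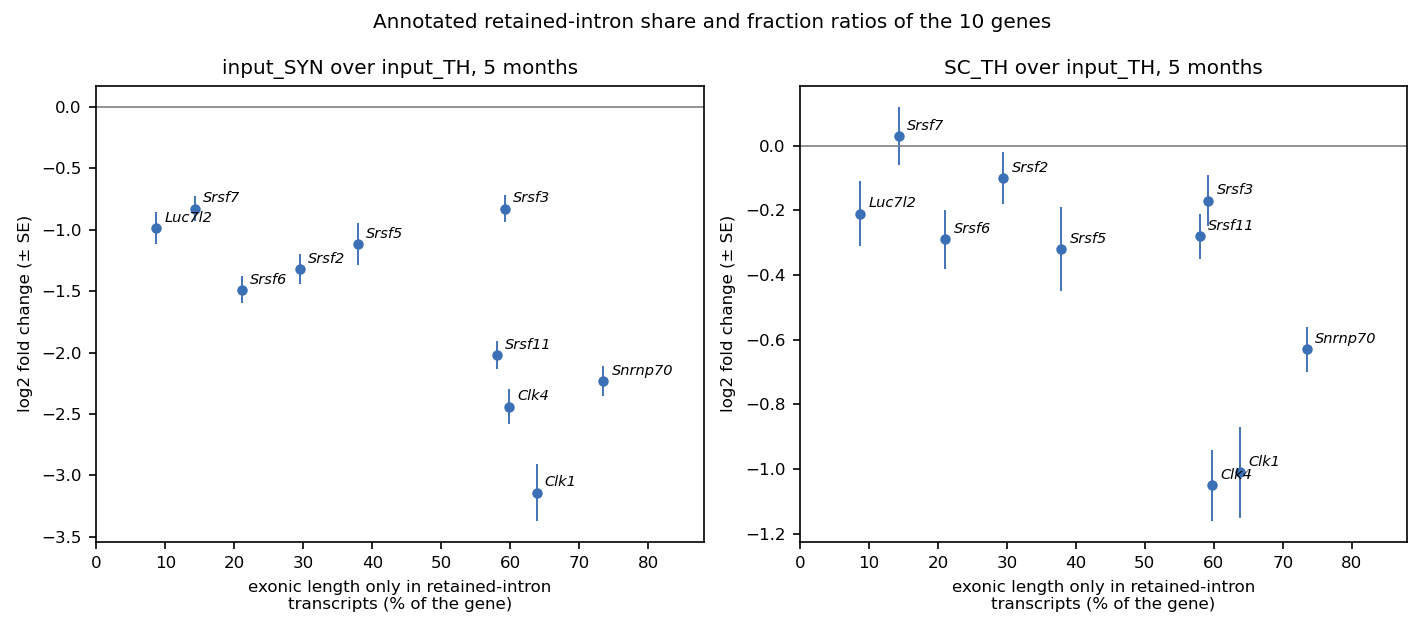
Share of each gene's exonic length annotated only in intron-retaining transcripts (x, percent) against the log2 fold change at 5 months (y, ± SE) of input_SYN over input_TH (left) and of SC_TH over input_TH (right, part of what chose the genes). In the left panel Srsf3 lies above the other 4 genes with shares over 50%.

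The pellet over input ratio of the homogenate, which chose the genes, is described next. In TH the median log2 ratio of the 10 genes was -0.07 at 3w, -0.28 at 5m and -0.30 at 18m, against -0.05, -0.05 and -0.01 over all genes. At the 3 ages 4, 6 and 6 of them were past the threshold on the lower side, where 26.6%, 32.2% and 32.7% of 18416 genes were. They were Snrnp70, Clk1 and Clk4 at every age, with Srsf2 at 3w, Srsf5, Srsf6 and Srsf11 at 5m, and Srsf5, Srsf11 and Luc7l2 at 18m. Clk1, Clk4 and Snrnp70 had the 3 lowest ratios at each age. Clk4 had ratios of -1.01, -1.03, -0.80 and -1.20 in the 4 mice of 5 months (mean -1.01 ± 0.166 SD) and Clk1 of -1.05, -0.75, -0.76 and -1.38 (-0.99 ± 0.295). Snrnp70 had -0.74, -0.60, -0.60 and -0.42 (-0.59 ± 0.132). These 3 genes were below 0 in 12 of 12 mice. The ratios of the SR proteins were smaller in size: at 5m the fitted values ran from -0.32 ± 0.13 for Srsf5 to 0.03 ± 0.09 for Srsf7, and Luc7l2 had -0.21 ± 0.10.

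Srsf2 had its lowest ratios in the young: -0.51, -0.46, -0.27 and -0.33 at 3w, against -0.04, -0.23, -0.08 and 0.08 at 5m. The ranges are apart only narrowly (-0.27 and -0.23), and the share of all genes apart in this way is not given here. Srsf5 moved the other way, from 0.29, 0.33, 0.00 and 0.22 at 3w to -0.84, -0.03, 0.06 and -0.38 at 5m, with ranges that overlap. For the change in this ratio from 3w to 5m, 0 of the 10 genes were past the threshold, beside 2.33% of 18416 genes in either direction. The median of the 10 was -0.04 at 5m and -0.11 at 18m with the GC and length trend removed, and ran from -0.34 to -0.16 at 5m without 1 mouse, the value nearest 0 being without mouse 191.

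In synaptosomes the direction of the same ratio differed between genes. The SR proteins were mostly above 0, with 1 (Srsf11) to 4 (Srsf2) of 12 mice below. Clk1 and Clk4 were below 0 in 5 and 6 mice, and Snrnp70 and Luc7l2 in 8 each. The median ratio over the 10 genes was 0.32 at 3w, 0.11 at 5m and 0.20 at 18m, against 0.01, 0.01 and 0.02 over all genes. Srsf2 at 5m, with ratios of 0.72, 1.03, 0.87 and 0.46, was past the threshold on the higher side (9.66% of 14301 genes were), and no other gene was at any age (18.5% of all genes in either direction at 3w and 12.6% at 18m). Srsf11 was above 0 in 11 of 12 mice, while Clk1 scattered from -1.70 to 0.65 among the mice of 5 months alone. Clk1 rested on 14 to 73 reads in those pellet libraries and on 8 to 24 in the input, and its SD over those 4 mice was 1.04.

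**Figure D5:**
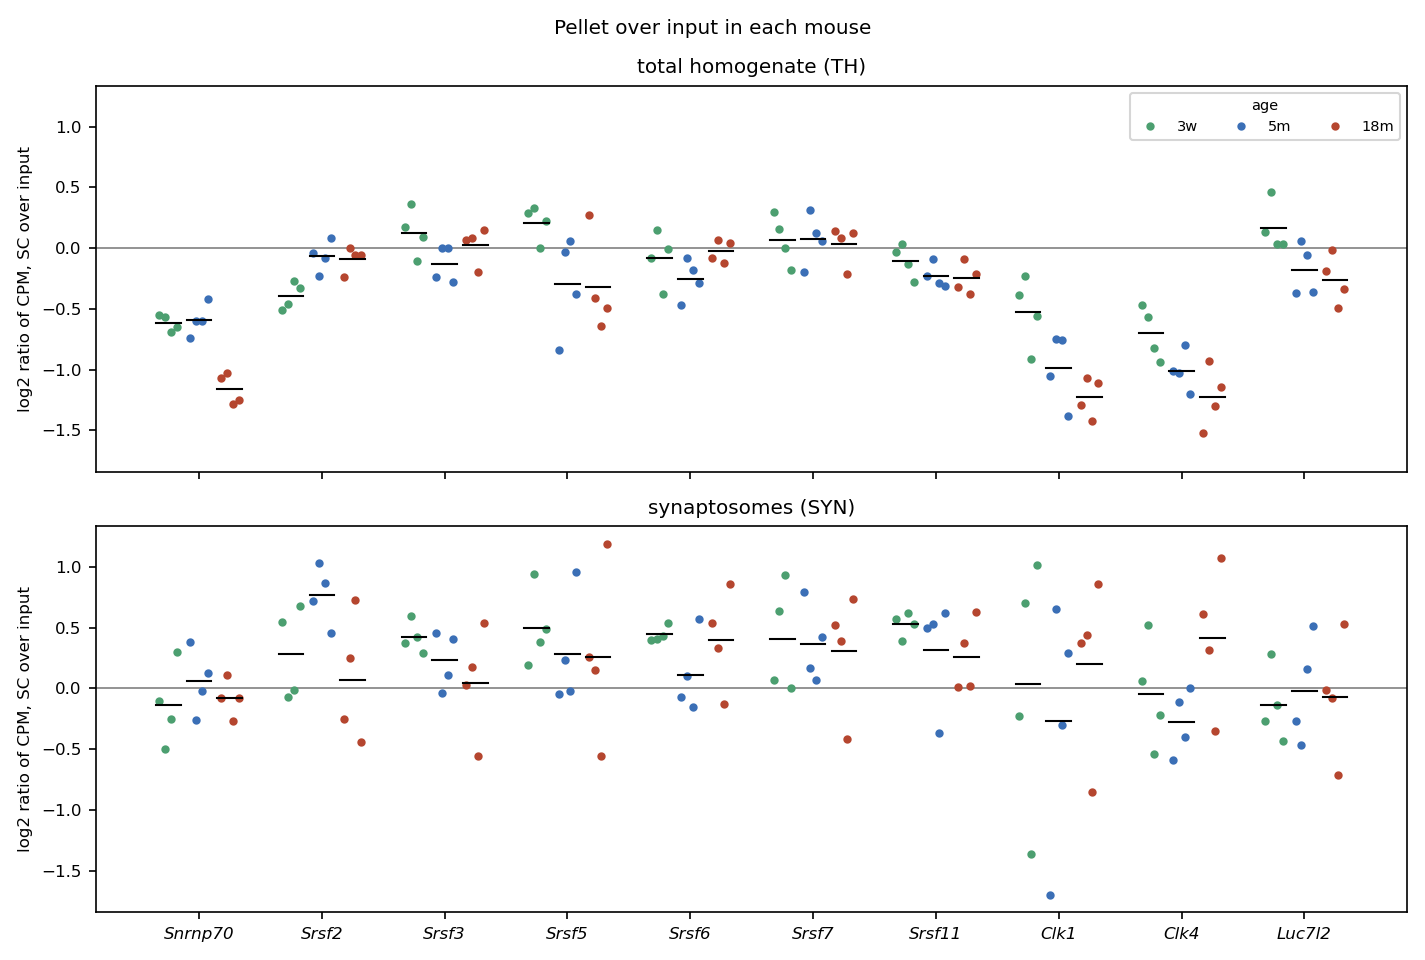
Log2 ratio of CPM in the pellet (SC) over the input for each mouse (dots, 4 per age) and gene, in homogenate (top) and synaptosomes (bottom), with the mean of 4 mice as a bar. In homogenate Clk1, Clk4 and Snrnp70 lie below 0 in all mice, while in synaptosomes the mice of 1 age often lie on both sides of 0.

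The values of the 89 other splicing genes are given for reference. Their lists too were drawn up with earlier results of these data known. In homogenate 50, 47 and 53 were past the threshold on the higher side at 3w, 5m and 18m and 17, 17 and 15 on the lower side, with medians of 0.28, 0.24 and 0.33. Over all genes 26.1%, 29.9% and 31.3% were on the higher side and 26.6%, 32.2% and 32.7% on the lower. The Sm core, U2, hnRNP and neuronal regulator lists had medians of 0.70, 0.47, 0.43 and 0.28 at 5m. The other SR proteins (-0.16), other SR protein kinases (-0.07) and other U1 proteins (-0.37) were nearer to the 10 genes. Among the nuclear noncoding RNAs 8 of 9 were past the threshold on the lower side at 5m, with a median of -1.20. Over all protein-coding genes at 5m the median pellet ratio was 0.11 with no retained-intron share and -0.06 with a share over 50%, and 20.6% and 32.5% of genes in those classes were called lower.

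From 3 weeks to 5 months few of the 10 genes moved in homogenate. Srsf3 rose in input_TH from 64.3, 56.1, 61.7 and 58.4 CPM to 65.4, 72.7, 67.1 and 69.2 CPM (log2 0.18 ± 0.05, edgeR adjusted p = 0.0328). Srsf7 rose from 39.9, 38.7, 41.3 and 41 CPM to 47.7, 46.7, 44.8 and 48.4 CPM (log2 0.22 ± 0.06, edgeR adjusted p = 0.0217). Neither pair of groups overlaps, and 8% of all genes tested were apart in the same way. These 2 of 10 stand beside 4.76% of 18078 genes called higher, and the other 8 genes had log2 changes between -0.01 and 0.16. Each call is near the threshold: Srsf3 lost it without mouse 188, 189, 190, 192 or 194 and Srsf7 without mouse 187, 188, 191 or 194.

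In SC_TH, Srsf5 was lower at 5m (93.5, 141, 150 and 115 CPM) than at 3w (193, 191, 156 and 174 CPM), without overlap (log2 -0.54 ± 0.16, edgeR adjusted p = 0.0316), where 8.46% of 16427 genes were called lower. Of all genes, 8.19% lay lower without overlap. The call of Srsf5 was lost without any one of mice 187, 188, 190, 191 or 194. Srsf2 had 49.9, 50.9, 60.3 and 53.1 CPM at 3w and 74.1, 54.2, 68.4 and 69.5 CPM at 5m, a difference that did not pass (log2 0.29 ± 0.10, adjusted p = 0.0606). Without mouse 189 or 192, 4 of the 10 genes were called, with the share over all genes in those fits not given here.

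Between 5 and 18 months, which share the 5-month libraries with the comparison above, the homogenate values belong to what chose the genes. In input_TH 1 gene was past the threshold on the higher side (Snrnp70) and 4 on the lower (Srsf3, Srsf6, Clk1, Clk4), beside 8.18% and 7.35% of all genes. Snrnp70 had 246, 241, 267 and 237 CPM at 5m and 261, 280, 292 and 298 CPM at 18m, so that 1 old mouse lies within the younger range. In SC_TH it went the other way, from 141, 141, 160 and 161 CPM to 115, 128, 114 and 118 CPM, without overlap. There 6.35% of all genes tested lay lower without overlap. The 2 opposite shifts (log2 0.22 ± 0.06 and -0.34 ± 0.07) together made a change in pellet over input of -0.57 ± 0.09. Of the 10, 1 (Snrnp70) was past the threshold for that change, beside 1.17% of all genes on the lower side, which describes values that chose the genes.

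Clk1 and Clk4 were lower with age in both homogenate fractions. Clk1 had 44, 35.7, 50.4 and 35.4 CPM in input_TH at 18m (log2 -0.54 ± 0.10 against 5m) and 16.6, 15.8, 17.8 and 15.4 CPM in SC_TH (-0.82 ± 0.16). Clk4 had 36.9, 31.4, 42.1 and 32.7 CPM (-0.36 ± 0.08) and 11.8, 15.3, 16.1 and 13.8 CPM (-0.59 ± 0.13). All old values of either kinase lie below all 5-month values in each fraction. Of all genes tested, 9.27% in input_TH and 6.35% in SC_TH were apart in the same way. In SC_TH 3 of the 10 genes were past the threshold on the lower side (Snrnp70, Clk1, Clk4), beside 1.79% of all genes. That count was 0 without mouse 193 or mouse 198. Of the nuclear noncoding RNAs 6 of 9 were called lower there, and their sum was 9130 to 12100 CPM at 5m and 6430 to 7580 at 18m. The part of nuclear RNA in the SC_TH values was not tested.

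In synaptosomes no age difference of the 10 genes passed edgeR's threshold, in the input or the pellet, from 3w to 5m or from 5m to 18m. The called share over all genes was 3.22% in input_SYN and 8.05% in SC_SYN from 3w to 5m, and 0.139% and 0.014% from 5m to 18m. At an unadjusted p under 0.05, 1 gene stood in input_SYN (Srsf7, 3w to 5m), 0 in input_SYN from 5m to 18m, and 1 in SC_SYN in each comparison (Srsf6 both times). Over all genes those shares were 16.9% and 9.36% in input_SYN and 26.1% and 17.4% in SC_SYN. DESeq2 called 0 in each of the 4. Srsf6, an SR protein, had 31.1, 42.9, 46.7 and 31.8 CPM in SC_SYN at 3w, 24, 30.3, 22.8 and 32.5 CPM at 5m, and 55, 33.8, 29.2 and 52 CPM at 18m. The ages overlap. Its log2 changes were -0.50 ± 0.22 and 0.63 ± 0.22. For Snrnp70 the interval in SC_SYN from 5m to 18m was -0.60 to 0.03 and in input_SYN -0.49 to 0.14, and for Clk1 in input_SYN it was -0.81 to 0.70.

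Whether the age changes differed between the compartments was tested from 3w to 5m: none of the 10 genes passed in the input or the pellet (edgeR, none at an unadjusted p under 0.05, where 8.05% of all genes in the input and 7.96% in the pellet stood, and 0 by DESeq2; with adjustment 0.0224% of all genes were called in the input and 0.0301% in the pellet). From 5m to 18m, with homogenate values that chose the genes, Clk1 had a pellet difference between SYN and TH of -2.38 at 5m and -1.16 at 18m, and Clk4 of -1.68 and -0.89. The change was 1.22 ± 0.37 and 0.79 ± 0.23 on the log2 scale. Over the same step, SC_TH changed by -0.82 and -0.59 and SC_SYN by 0.43 ± 0.34 and 0.23 ± 0.19 for Clk1 and Clk4. The SC_SYN levels were 2.1 to 6.79 CPM (Clk1) and 4.94 to 7.49 CPM (Clk4) at 5m and 4.96 to 10.9 and 6.23 to 9.84 CPM at 18m, so the ages overlap. None of the 10 passed edgeR's threshold for this change, and none of all 16630 genes did. DESeq2 called 2 of the 10, but its share over all genes is not given here, so nothing is read from that count.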

How the data were processed

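The table the authors deposited holds raw read counts per gene for 48 libraries, made by the authors from rRNA-depleted, directional, UMI-adapted libraries sequenced single-end (bcl2fastq 2.20.0.422, TopHat2 2.1 on GRCm38, featureCounts without strand; use of the UMIs is not given in the sources used here). The labels do not say which library was in which of the sequencing runs. Counts were normalised by TMM and tested with edgeR 4.0.16 (R 4.3.3) by quasi-likelihood, after filterByExpr (minimum count 10), with Benjamini-Hochberg adjustment over all genes tested and a threshold of 0.05. Age comparisons used the 12 libraries of a fraction. Comparisons of SYN with TH, and of SC with input, used 24 libraries. Ratios per mouse are differences of log2 CPM, with 2 as the prior count. Fold changes carry an SE, and intervals are 95% and cover the spread between these samples.

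The 10 genes and all lists were chosen with earlier results of these data known. One list is not reported here. Named genes are those 10, members of the other lists, and the 5 genes with the most similar profile. Annotation and splice site sequences came from GENCODE M21 (GRCm38), a later release than the one used for counting. Replicates are separate mice, and libraries with the same mouse number come from the same animal. Over 72 pairs of such libraries the correlation of deviations from group means ran from -0.595 to 0.603 (median 0.14, 46 over 0.1). The fits were tested on simulated data. Alternatives were DESeq2 1.42.0, library size scaling, no filter, a replicate block, log2 fold changes corrected for GC content and exonic length by loess, a prior count of 0.5, and leaving out each mouse.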

Additional observations from a re-analysis of the deposited data

Results flagged for a closer look

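Of 120 groups of 4 libraries (10 genes, 4 fractions, 3 ages), 2 held a library whose gap to the nearest other exceeded Dixon's 95% critical value, where chance gives about 6. Srsf5 in SC_TH at 18 months had 180 CPM in mouse 195 and 110 to 115 CPM in the other 3 mice, a gap of 0.937 of the range. Srsf2 in input_TH at 18 months had 72.7 CPM in the same mouse and 80.6 to 82 CPM in the others, a gap of 0.848 of the range.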

How the results depend on the processing

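No called value changed sign under the alternatives run, and the 10 calls of input_SYN against input_TH held at each age under every alternative that gives calls. The block on mouse changed no call: its count for input_SYN against input_TH at 5m was 10, as without it. Scaling by library size gave medians over the 10 genes of -1.94, -2.06 and -1.74 (input_SYN against input_TH at 3w, 5m, 18m), -1.47, -1.56 and -1.36 (SC_SYN against SC_TH), 0.11 and -0.20 (input_TH, 3w to 5m and 5m to 18m) and -0.38 (pellet over input in TH at 5m), and 1 call each for the input SYN minus TH change from 5m to 18m and pellet over input in SYN at 3w. Removing the trend on GC content and length gave -0.84, -0.88 and -0.73 (input_SYN against input_TH), -0.57, -0.53 and -0.37 (SC_SYN against SC_TH), -0.01 (input_TH, 5m to 18m), -0.06 (SC_TH, 3w to 5m), -0.02 and 0.05 (SYN minus TH change from 5m to 18m, input and pellet), -0.04 and -0.11 (pellet over input in TH at 5m and 18m) and -0.07 (its change from 3w to 5m). DESeq2 gave -1.51 (input_SYN against input_TH at 5m) and, for the SYN minus TH change from 5m to 18m, 2 calls in the pellet and 1 in the input. Without the filter 1 gene was called in input_TH and 2 in SC_TH from 3w to 5m, and 1 for the change in pellet over input in TH. The cause of these moves was not tested. Shares of all genes called are given for the main edgeR fits only.

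Leaving out 1 mouse gave 0 to 2 calls in input_TH and 0 to 4 in SC_TH (median -0.27 to -0.09) from 3w to 5m, and 0 to 3 in SC_TH from 5m to 18m. For pellet over input in TH the medians were -0.34 to -0.16 at 5m and -0.32 to -0.22 at 18m. Its change from 3w to 5m had a median of -0.36 to -0.17 and 0 to 1 calls, and from 5m to 18m a median of -0.17 to 0.01. In SYN the count at 5m was 0 to 1, the median at 18m 0 to 0.43 and its change from 5m to 18m -0.18 to 0.24. Depth limits Clk1 and Clk4 in input_SYN, where a library held as few as 5 and 14 reads.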

Other observations

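The mean profile of the 10 genes over the 12 groups of fraction and age was matched most closely, among 9147 other genes with at least 10 CPM on average, by Nup93 (a nuclear pore protein, Pearson r = 0.996), Prdm15 (0.994), Flt1 (a VEGF receptor of endothelial cells, 0.994), Rbm5 (an RNA-binding splicing regulator, 0.994) and Abcb1a (an efflux transporter of brain endothelium, 0.993). Their log2 fold changes of input_SYN over input_TH at 5m were -1.87, -1.66, -4.80, -2.37 and -2.45, and of pellet over input in TH -0.31, -0.34, -1.13, -0.37 and -0.77. Such correlations describe 12 group means that share libraries. Among the 10 genes themselves Clk1 and Clk4 had the highest pairwise r (0.991), and Srsf11 was closest to the mean of the 10 (0.991) while Srsf7 was farthest (0.938).

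In ribosome-associated RNA, the 15 neuronal splicing regulators were lower in SC_SYN than in SC_TH at 5m in 12 genes (Rbfox1, Nova1 and Elavl2 among them) and higher in 1 (Celf4), with a median log2 fold change of -0.83. Over all genes 35.8% were called lower and 32.1% higher there. In the input the counts were 8 and 4, with a median of -0.24, beside 40.1% and 32.6% of all genes.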
